A study of Caenorhabditis elegans with 12 samples.

Results

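Worms of the *C. elegans* strain BS1080, which carry a gfp-tagged *gld-1* transgene, were crosslinked in 2 ways before vIPR, the pulldown of 1 chosen transcript together with the proteins bound to it. The input of each pulldown, a sample of the cleared lysate taken before any probe was added, was sequenced, and the PAR-XL input was compared here with the cXL input, gene by gene. The pair comprises 2 of the 12 libraries of the study and was chosen by strain (BS1080), genotype (*gld-1::gfp*) and sample type, with 1 library on each side. Both come from pooled populations of synchronized worms labelled as young adults, and in both the ribosomal RNAs of the worm were depleted with RNase H. For PAR-XL, worms were labelled with the photoreactive nucleoside 4SU (3 mM) while growing in liquid culture with *E. coli* OP50 at 24 °C, were typically harvested after 52 to 53 h, and received 3 J per cm2 of long-wave UV light. For cXL, worms grew without 4SU on plates seeded with OP50, were typically harvested after 44 to 45 h, and received 1 J per cm2 of short-wave UV light. These hours are the typical values of the study's methods and are not given per library. Labelling, culture, harvest time, wavelength and energy all differ between the inputs, so their parts in any difference cannot be told apart.

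The 3 other libraries of worm RNA are set beside the pair as a description and are not replicates of it. They are total RNA of BS1080 worms, extracted directly with Trizol and labelled as not crosslinked, and the cXL inputs of strain DG3913 (*gfp::lin-41*) and of the wild type N2, both young adults grown and irradiated as for the *gld-1::gfp* cXL input. The title of the total RNA names PAR-XL, and whether its worms were fed 4SU is not stated. Levels are given as TPM, length-corrected transcript abundances rescaled to a sum of 1000000 over the worm transcripts without ribosomal RNA, first in the PAR-XL input and total RNA and then in the cXL inputs of *gld-1::gfp* worms, of *gfp::lin-41* worms and of N2 worms, always in that order.

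A *C. elegans* hermaphrodite makes sperm at the end of larval life and then turns to oocytes for the rest of its fertile life. The adult intestine secretes yolk proteins, the vitellogenins, which growing oocytes take up, and the fertilized egg is enclosed in an eggshell. The body is covered by a collagen cuticle that the epidermis rebuilds at each larval molt, with successive waves of collagen, hedgehog-related and protease genes. Other genes respond to low oxygen, oxidants, foreign compounds, diet, heat or DNA damage. The question put to the pair was how far the worm RNA from which each pulldown started differs in these stage, germline, cuticle and stress classes.

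The PAR-XL input held 26695650 estimated counts and the cXL input 18542857 after removal of ribosomal RNA, which took 20.5% and 13.7% of the worm counts. The other 3 libraries kept between 12227263 and 18574971. Each ratio of 1 gene is the PAR-XL TPM over the cXL TPM, or its inverse, with a 95% confidence interval (CI) from the Poisson error of the estimated counts. The libraries carry no molecular identifiers, so reads are not independent molecules, and each input is a single library, so the intervals cover counting error only, no difference has a replicate check, and no p-value is given. Where a library held no count, no ratio is given. The transgene and the germline genes fit the labels of both libraries. The *gld-1::gfp* transgene was at 148 and 217 TPM, and endogenous *gld-1*, the translational repressor of the meiotic germline, at 168 and 272 TPM. The transgene and the endogenous gene share their sequence outside the tag, so the division of reads between them is uncertain. The tubulin gene *tbb-2*, used as a control transcript, was at 807 and 889 TPM.

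Over the 12380 genes above 1 TPM in both inputs, the squared Pearson correlation of log2 TPM across genes was 0.83. The same measure was 0.93 between the PAR-XL input and total RNA, 0.94 and 0.95 between the cXL input of *gld-1::gfp* worms and those of *gfp::lin-41* and N2 worms, and 0.78 and 0.80 between the PAR-XL input and these other cXL inputs. The PAR-XL input thus lay closer to total RNA, and the cXL input closer to the cXL inputs of other strains, than the 2 inputs lay to each other. A gene was compared where its mean TPM over both inputs was above 1 and both together held at least 20 estimated counts, and it was called higher or lower where (TPM + 1) differed at least 2-fold. Of 13874 compared genes, 3396 (24.5%) were at least 2-fold higher in the PAR-XL input and 313 (2.26%) at least 2-fold lower. By the same measure, 3.41% of genes between the *gld-1::gfp* and N2 cXL inputs, and 7.77% between that of *gld-1::gfp* and that of *gfp::lin-41* worms, were at least 2-fold apart in either direction, against 26.7% in the pair. The median log2 ratio of the 13874 genes was 0.33 rather than 0, so the typical gene lay slightly higher in the PAR-XL input on the TPM scale. This scale includes the short RNA genes *srpr-2.1* and *srpr-2.2*, which summed to 126246 TPM in the cXL input and 59184.5 TPM in the PAR-XL input. Their TPM is uncertain, and it lowers the TPM of all other genes in the cXL input more than in the PAR-XL input. With protein-coding genes only and TPM rescaled, the median log2 ratio was 0.27. Centring the ratios on the median of 0.33 left 2033 genes higher and 794 lower, which took the share of higher genes among the calls from 91.6% to 71.9%. Medians of gene lists are therefore given as measured and, where it matters, relative to the median of all genes.

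**Figure D1:**
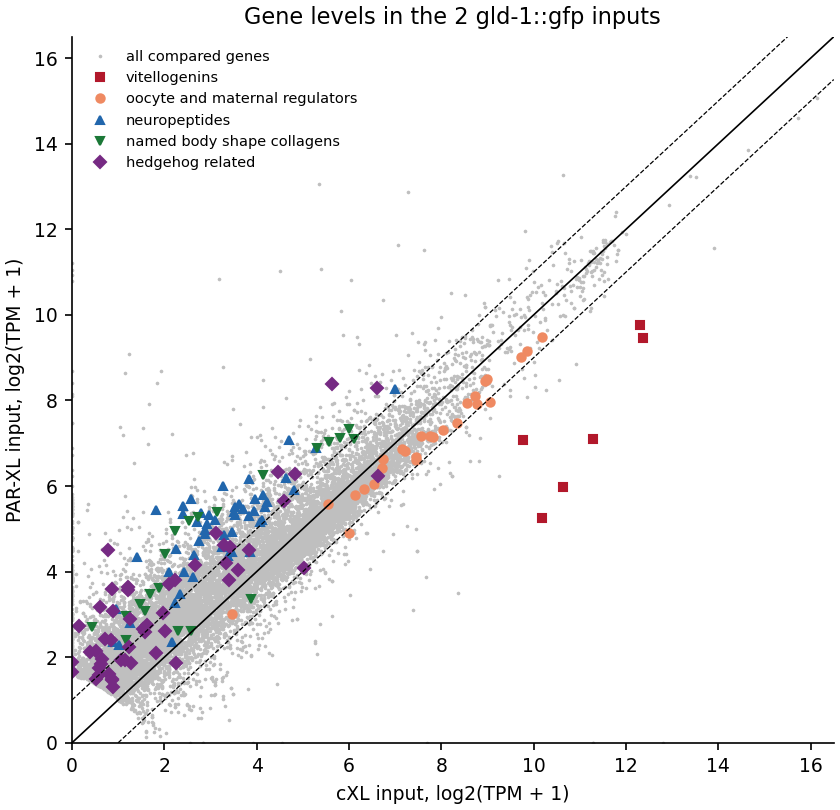
Level of each compared gene in the cXL input (x axis) and the PAR-XL input (y axis) of *gld-1::gfp* worms, both as log2(TPM + 1), with the line of equal levels and dashed lines at a 2-fold difference. All 6 vitellogenins lie far below the lower dashed line, the oocyte genes lie mostly just under the line of equal levels, and neuropeptide, body shape collagen and hedgehog-related genes lie above it.

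All 6 vitellogenin genes, which encode the yolk proteins, were lower in the PAR-XL input, by 5.83 to 31.2-fold, whereas 2.26% of all genes were lower. In bulk RNA, fewer cells of a type and less RNA per cell cannot be told apart. The most abundant, *vit-2* (WBGene00006926, chromosome X, 5101032-5106173, plus strand), had 862 and 1240.1 TPM in the PAR-XL input and total RNA and 5029, 6627 and 7109 TPM in the 3 cXL inputs, a level 5.83-fold higher in cXL (95% CI 5.80 to 5.87). The next, *vit-6* (chromosome IV, 8261145-8266463, plus strand), had 702 and 990.4 against 5326, 6637 and 7074 TPM, 7.59-fold (95% CI 7.54 to 7.64). In both genes the PAR-XL input and total RNA lay below all 3 cXL inputs, without overlap. The largest ratios were those of *vit-3* (36.9 and 46.8 against 1152, 2110.1 and 1839 TPM, 31.2-fold) and *vit-4* (62.5 and 63.1 against 1600.3, 2323 and 2090.4 TPM, 25.6-fold), followed by *vit-5* (18.2-fold) and *vit-1* (6.44-fold). The genes *vit-3*, *vit-4* and *vit-5* are near-identical copies, so that the division of reads among them is uncertain, while their direction is shared. Summed, the vitellogenins took 1935 TPM in the PAR-XL input and 2714 TPM in total RNA, but 16464, 22674 and 22759 TPM in the cXL inputs.

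Oocyte genes were lower too, by much less than 2-fold in most cases. Of 26 oocyte and maternal regulators compared, 2 were at least 2-fold lower and none higher, with a median log2 ratio of -0.60, or -0.93 relative to all genes. In 23 of them the PAR-XL input and total RNA both lay below all 3 cXL inputs, which held for 18.2% of all compared genes. The others were *apx-1*, *oma-1* and *lin-41*, and *lin-41* could not be counted because its tagged copy in strain DG3913 has an entry of its own. The 2 called genes were *rme-2*, the yolk receptor of the oocyte, with 251 and 197 against 527, 507 and 642 TPM (2.104-fold higher in cXL, 95% CI 2.07 to 2.14), and *meg-1*, a component of embryonic germ granules, with 29.1 and 34.3 against 62.9, 126 and 78.5 TPM (2.16-fold, 95% CI 2.03 to 2.29). The oocyte maturation gene *oma-2* had 177 and 181 against 324, 399 and 366 TPM. The smallest differences were those of the Notch ligand *apx-1* (47.02 and 46.0 TPM in the pair), the transcription factor *skn-1* (98.2 and 105 TPM) and *nos-2* (115 and 141 TPM). The most abundant member, the Y-box protein gene *cey-2*, had 719.6 and 655 against 1158, 1428 and 1502 TPM. The list took 5153 and 5258 TPM in the PAR-XL input and total RNA and 8103 to 10037 TPM in the cXL inputs.

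The eggshell list lay at the same median: none of its 14 genes differed 2-fold, and their median log2 ratio was -0.60. In 12 the PAR-XL input and total RNA lay below all 3 cXL inputs, against 18.2% of all genes. Examples are *cbd-1*, a chitin-binding protein of the vitelline layer, with 661 and 533 against 1072, 1117 and 1326 TPM, the egg activation gene *egg-3* with 66.8 and 59.5 against 108, 112 and 103 TPM, and *gna-2*, which makes the precursor of eggshell chitin, with 77.0 and 86.5 against 144, 147 and 95.8 TPM. The exceptions were *perm-2* (611 and 699 against 474, 689.9 and 754 TPM) and *perm-4* (427 and 546 against 471, 662 and 683 TPM), 2 genes of the eggshell's permeability barrier. P granule genes, whose products form the RNA granules of germ cells, had a median of -0.48, and all 14 were below all 3 cXL inputs in the PAR-XL input and in total RNA, though none by 2-fold. The list of mitotic and meiotic germline genes lay closer to even, with a median of -0.32 over 28 genes and 10 genes below all 3 cXL inputs. Within it, *him-3*, a protein of meiotic chromosome axes, had 42.3 and 54.3 against 79.3, 88.2 and 61.1 TPM, *sygl-1*, a stem cell gene downstream of Notch signalling, 96.0 and 85.2 against 169, 221.5 and 244 TPM, and *syp-1*, a protein of the synaptonemal complex, 37.04 and 60.7 against 28.6, 45.5 and 24.8 TPM, the last with overlapping groups.

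Sperm genes lay on the other side. Of 50 compared sperm genes outside the major sperm protein family, 20 (40%) were at least 2-fold higher in the PAR-XL input and none lower, against 24.5% higher among all genes, and in 44 both the PAR-XL input and total RNA lay above all 3 cXL inputs, against 45.7% of all genes. Their summed level was 2673 and 3285 TPM against 1436, 1057 and 860.3 TPM. The largest ratios were those of *nspd-9* (55.8 and 84.4 against 8.88, 5.34 and 5.23 TPM), *nspd-2* (415 and 512 against 72.9, 22.4 and 3.158 TPM) and *ssp-16* (71.1 and 74.7 against 14.3, 17.5 and 11.9 TPM), all with transcripts under 500 bases. With only the 28 members that have a transcript of at least 500 bases, 14 were higher and none lower. Of 29 genes of the major sperm proteins, which drive the crawling of sperm, 12 (41.4%) were higher and 2 lower, with a median of 0.61. In 23 the PAR-XL input and total RNA lay above all 3 cXL inputs, and in 2 below, against 45.7% and 18.2% of all genes. The 2 genes called lower were *msp-32* (4.23 and 0.842 against 37.2, 31.96 and 32.6 TPM) and *msp-56* (477 and 253 against 1027, 234 and 275 TPM), the latter with overlapping groups. The 2 below all 3 cXL inputs were *msp-32* and *msp-53* (323 and 202 against 549, 449 and 353 TPM), which was not called. The major sperm protein genes are near-identical copies, so their division of reads is uncertain, and only 3 have a transcript of at least 500 bases, with a median of -1.44 relative to all genes. Their summed level was 7964 and 8239 TPM in the PAR-XL input and total RNA and 5366, 3489 and 3407 TPM in the cXL inputs, with no overlap between the groups.

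Genes first transcribed in the embryo were mostly at a few TPM in every library. Of 20 compared, 3 (15%) were higher and 3 (15%) lower, against 24.5% and 2.26% of all genes. All 3 lower ones, *sdz-37*, *pes-10* and *sdz-30*, were under 1 TPM in the PAR-XL input and between 2.32 and 4.601 TPM in the cXL input of the same strain. Among the higher ones, *sdz-24* had 30.8 and 18.4 against 1.42, 2.51 and 2.80 TPM and *sdz-8* 19.1 and 14.8 against 1.39, 4.599 and 1.66 TPM.

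Cuticle genes made up the second broad group. The collagens named for their mutant body shapes were higher in the PAR-XL input in 17 of 21 cases (81%, against 24.5% of all genes) and lower in none. Their median log2 ratio was 1.71, or 1.38 relative to all genes. In 18 both the PAR-XL input and total RNA were above all 3 cXL inputs, against 45.7% of all genes. The roller collagen *rol-6* (chromosome II, 8733050-8734314, plus strand) had 29.95 and 27.2 TPM against 3.73, 4.52 and 2.169 TPM, an 8.03-fold difference (95% CI 6.25 to 10.3). Close to it were *sqt-2* (35.5 and 31.9 against 4.83, 3.85 and 3.18 TPM, 7.36-fold) and *rol-8* (37.95 and 32.8 against 5.67, 4.59 and 4.21 TPM, 6.69-fold). The most abundant of these collagens, *bli-6*, had 160.5 and 130.0 against 62.9, 16.9 and 45.2 TPM. Not all members differed: *dpy-10* had 5.16 and 5.69 against 5.02, 7.23 and 3.48 TPM, *dpy-17* 5.14 and 4.17 against 3.91, 6.86 and 6.001 TPM, and *mec-5*, a collagen of the matrix around touch neurons, 9.32 and 13.2 against 13.6, 22.3 and 16.6 TPM, the last with the PAR-XL input and total RNA below all 3 cXL inputs.

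The large col family was mixed and did not follow the body shape collagens in sum. Of 126 compared col genes, 49 (38.9%) were higher and 8 (6.35%) lower, both above the shares of all genes, and their summed level overlapped between the groups, with 43112 and 38404 TPM against 44859.7, 30012 and 51677 TPM. At one end were *col-2* (12.5 and 9.94 against 0.897, 0.107 and 0.395 TPM, 13.9-fold) and *col-40* (8.18 and 8.26 against 0.321, 0.184 and 0.225 TPM). At the other were *col-149* (6.82 and 11.1 against 48.3, 239 and 46.6 TPM) and *col-101* (139 and 179 against 458, 564 and 703 TPM, 3.30-fold higher in cXL). The most abundant, *col-124*, had 3783 and 3508 against 4067, 2452 and 5072 TPM and did not separate the groups. Nor did *col-19*, a collagen of the adult cuticle, with 2092 and 1751 against 1781, 1103 and 1983 TPM. Cuticlins, the insoluble proteins of the cuticle, were higher in 7 of 13 cases (53.8%, against 24.5% of all genes) and lower in none. In all 13 the PAR-XL input and total RNA exceeded the 3 cXL inputs, against 45.7% of all genes. An example is *cut-2* with 34.5 and 31.9 against 10.9, 7.09 and 5.71 TPM.

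Genes required for molting were higher in 17 of 24 cases (70.8%, against 24.5% of all genes) and lower in none. Of them, 21 were above all 3 cXL inputs in both libraries, against 45.7% of all genes. The largest ratio among them was that of *lpr-3*, a lipocalin of the apical matrix (9.33 and 8.96 against 1.17, 1.57 and 0.683 TPM, 8.002-fold, 95% CI 5.82 to 11.01), and *mlt-11*, a protease inhibitor, was close (11.5 and 10.6 against 1.503, 2.13 and 1.44 TPM, 7.68-fold, 95% CI 6.78 to 8.69). The metalloprotease gene *nas-37* had 22.9 and 35.8 against 7.45, 11.3 and 6.66 TPM. By contrast *nhr-23*, the nuclear receptor that drives the molting cycle, had 29.98 and 36.4 against 33.2, 39.6 and 32.5 TPM, with overlapping groups, and so did *mab-10*, with 9.28 and 15.96 against 10.1, 10.9 and 9.21 TPM. Hedgehog-related and patched-related genes are used by *C. elegans*, which lacks a canonical hedgehog pathway, largely in the epidermis. They were higher in 33 of 51 cases (64.7%, against 24.5% of all genes) and lower in none. Their summed level was 1315 and 1455 TPM against 472, 553 and 456 TPM. The warthog gene *wrt-4* had 21.8 and 19.6 against 0.712, 0.746 and 0.532 TPM (30.6-fold, 95% CI 20.2 to 46.2), and the abundant groundhog gene *grd-5* had 335 and 373 against 48.6, 54.3 and 51.5 TPM (6.88-fold, 95% CI 6.02 to 7.86). The patched-related genes *ptr-21* (16.03 and 17.3 against 31.6, 32.6 and 39.3 TPM) and *ptr-2* (74.3 and 71.4 against 98.3, 126 and 103 TPM) lay on the other side, both below all 3 cXL inputs.

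**Figure D2:**
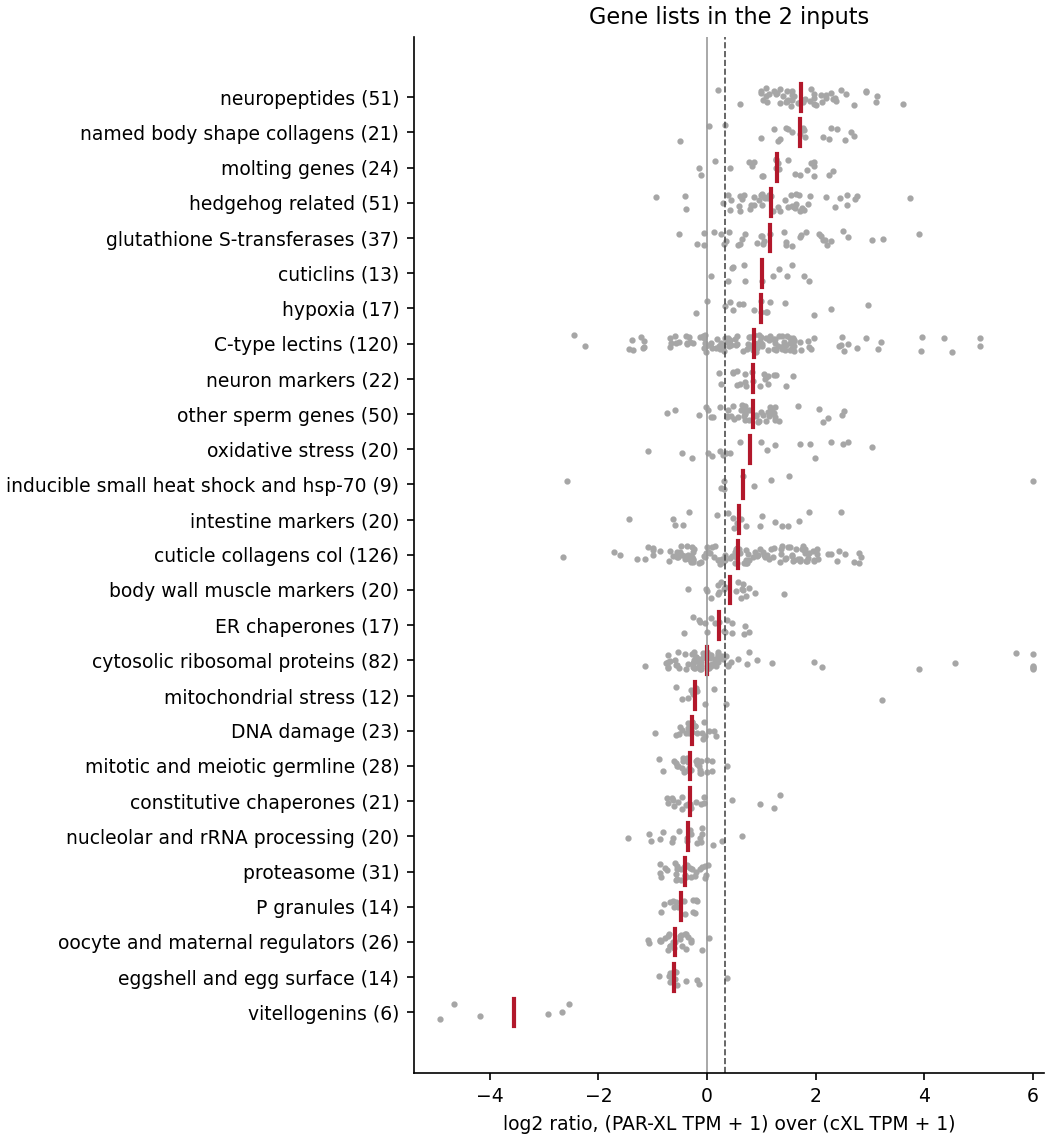
Each grey point is 1 compared gene, placed by its log2 ratio of (TPM + 1) in the PAR-XL over the cXL input of *gld-1::gfp* worms, in the list named at the left with the number of genes compared. Red bars are list medians, the solid line marks equal levels and the dashed line the median of all genes (0.33), and points past either end of the axis are drawn at its edge. Neuropeptides (1.73) and body shape collagens (1.71) have the highest medians and vitellogenins (-3.55) the lowest.

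Markers of other tissues were examined beside these lists. Neuropeptide genes were higher in 47 of 51 cases (92.2%, against 24.5% of all genes). All 51 were above the 3 cXL inputs in both the PAR-XL input and total RNA, against 45.7% of all genes. Their summed level was 2130.4 and 2377 TPM against 610.2, 756 and 681 TPM. The largest ratio was that of *flp-20* (42.1 and 37.2 against 2.53, 0.975 and 0.628 TPM, 16.7-fold, 95% CI 8.25 to 33.7), and *nlp-12* followed (45.5 and 46.5 against 4.31, 8.50 and 5.45 TPM, 10.6-fold, 95% CI 6.49 to 17.2). The most abundant, *nlp-40*, an intestinal peptide that times defecation, had 309.8 and 305 against 127, 165 and 179 TPM. Restricted to transcripts of at least 500 bases, 37 of 40 neuropeptide genes were higher.

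Neuron markers that are not peptides were higher in 9 of 22 cases (40.9%), and all 22 were above the 3 cXL inputs in both libraries. The highest ratio was that of *unc-25*, which makes the transmitter GABA (22.6 and 23.1 against 6.87, 7.19 and 9.04 TPM, 3.30-fold), and then of *sbt-1*, a chaperone of peptide processing (156 and 156 against 56.6, 64.8 and 57.9 TPM, 2.76-fold). The synaptic priming gene *unc-13* was near even in the pair (7.20 and 5.88 TPM). Pharynx markers were higher in 3 of 15 cases (20%, against 24.5% of all genes), with a median of 0.84. They were above all 3 cXL inputs in 14, against 45.7% of all genes. Body wall muscle markers had a median of 0.43, only 0.09 above that of all genes, with 1 of 20 higher. None of 5 coelomocyte markers was called, with a median of 0.28. Epidermis markers were higher in 5 of 10 cases and summed to 3710.4 and 3901 TPM against 2136, 1566 and 2424 TPM. This list holds the long noncoding RNA *tts-1*, and without it, a sum added after seeing the data, the groups overlapped, with 2398 and 2119 against 2031, 1365 and 2241 TPM. So the oocyte, eggshell, P granule and mitotic and meiotic lists lay below, and the neuron, pharynx and cuticle lists above, the median of all genes in the same pair, and what part a shift in the share of germline RNA has in either was not tested.

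Intestine markers differed among themselves. Of 20, 7 (35%) were higher and 1 (5%) lower, against 24.5% and 2.26% of all genes. Their sum was 15811 against 10362 TPM in the pair, although the vitellogenins, made in the same tissue, were lower. The cathepsin B-like protease genes *cpr-3* (55.1 and 42.2 against 9.09, 13.4 and 8.78 TPM, 6.06-fold) and *cpr-1* (635 and 636 against 195, 173 and 232 TPM, 3.25-fold) were among the higher ones. The single lower gene was *cpl-1*, a cathepsin L with a role in yolk handling, with 383 and 551 against 1038, 1091 and 1267 TPM (2.71-fold higher in cXL, 95% CI 2.65 to 2.78). The intestinal regulator *elt-2* had 12.16 and 21.5 against 5.69, 5.89 and 3.21 TPM and the abundant protease gene *asp-1* 5432 and 4804 against 3515, 2988 and 4186 TPM.

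**Figure D3:**
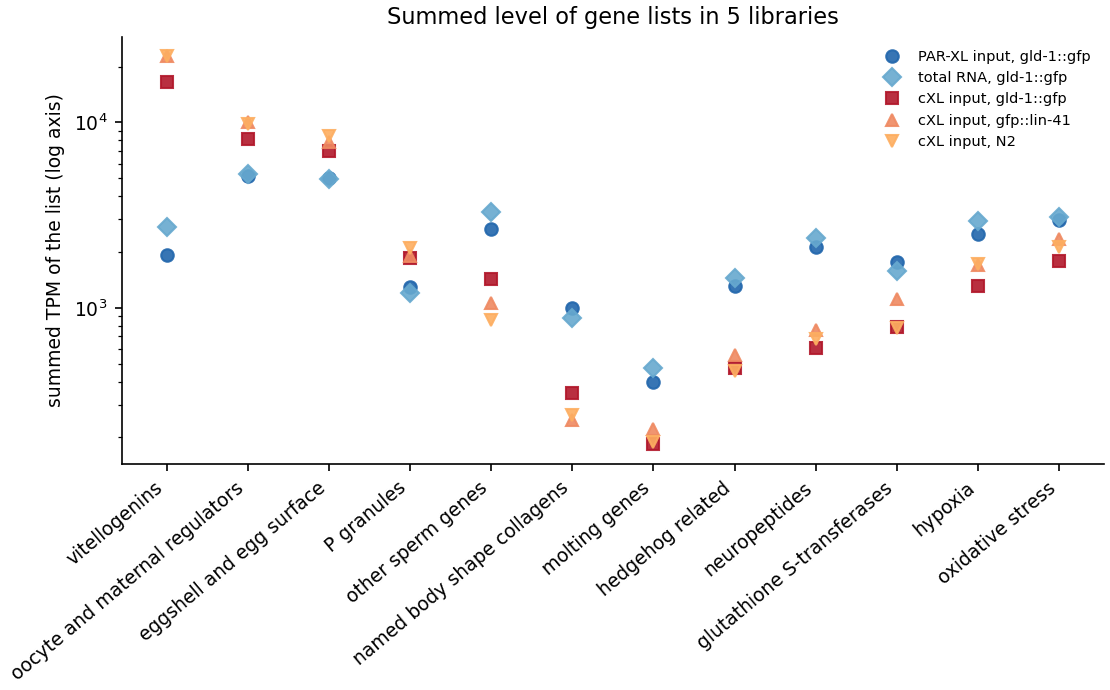
Summed TPM (log axis) of 12 gene lists in the 5 libraries, with blue symbols for the PAR-XL input and total RNA and red to orange symbols for the 3 cXL inputs, 1 library each. In every list drawn the blue symbols stand apart from the red and orange ones, below them for vitellogenins, oocyte, eggshell and P granule genes and above them for the other 8 lists.

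Stress classes gave different results, so each is given apart. Hypoxia genes were higher in 7 of 17 cases (41.2%, against 24.5% of all genes) and lower in none. In 14 the PAR-XL input and total RNA were above all 3 cXL inputs, against 45.7% of all genes. The sulfide oxidoreductase gene *sqrd-1* had 42.5 and 40.6 against 4.58, 6.68 and 3.15 TPM (9.29-fold, 95% CI 7.67 to 11.3), the cysteine synthase-like gene *cysl-2* 197 and 135 against 49.6, 43.4 and 48.2 TPM (3.96-fold). The oxygen sensor *egl-9*, a target of HIF-1 as well as its regulator, had 29.3 and 18.3 against 14.2, 15.4 and 15.8 TPM, just short of a call. The glycolytic gene *gpd-3* had 722 and 850.5 against 362, 495 and 499.8 TPM, also just short of a call, and shares near-identical sequence with *gpd-2*. Farther from a call were the transcription factor gene *hif-1* (91.9 and 138 against 72.8, 80.4 and 87.1 TPM) and *ldh-1* (71.7 and 66.7 against 71.4, 73.2 and 81.2 TPM).

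Glutathione S-transferases, which conjugate oxidants and foreign compounds, were higher in 22 of 37 cases (59.5%, against 24.5% of all genes) and lower in none. The reporter gene of the SKN-1 response, *gst-4*, had 110.3 and 99.7 against 12.64, 18.6 and 6.60 TPM (8.72-fold, 95% CI 7.30 to 10.4), *gst-19* had 25.7 and 18.99 against 0.785, 0.383 and 1.43 TPM (32.8-fold, 95% CI 14.6 to 73.4), and the most abundant, *gst-1*, 495 and 388 against 239, 356 and 258 TPM. In the oxidative stress list, which includes 4 of these transferases, 9 of 20 genes (45%) were higher and 1 (5%) lower. The catalase genes *ctl-2* (162 and 208 against 48.9, 58.2 and 56.6 TPM) and *ctl-3* (69.6 and 70.1 against 17.998, 17.7 and 34.3 TPM) were higher, *gcs-1*, the entry enzyme of glutathione synthesis, was at 67.7 and 65.3 against 50.4, 61.7 and 53.8 TPM, and the mitochondrial superoxide dismutase gene *sod-3* was the lower one, with 1.70 and 2.85 against 4.71, 7.5995 and 5.49 TPM.

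Heat and damage classes differed from each other. Of the 9 inducible small heat shock and *hsp-70* genes, 3 (33.3%) were higher and 1 (11.1%) lower, against 24.5% and 2.26% of all genes. Their median was 0.65, and the groups overlapped. The 6 *hsp-16* genes, a sum added after seeing the data, had 458 and 410.3 TPM against 263, 302 and 542 TPM. The *hsp-16* genes include near-identical pairs, and 1 entry of *hsp-16.1* (T27E4.8) was at 0 in the cXL input while the other copy (T27E4.2) had 112 TPM. The inducible chaperone gene *hsp-70* had 32.6 and 25.9 against 10.8, 9.36 and 28.4 TPM, with N2 between the values of the first group. Its relative F44E5.5 was lower, with 9.90 and 3.52 against 63.9, 59.7 and 64.7 TPM (6.45-fold higher in cXL, 95% CI 5.87 to 7.09), while the neighbouring copy F44E5.4 had 52.5 and 38.7 against 22.6, 20.6 and 66.7 TPM. The division of reads between these 2 copies is uncertain and is not covered by the interval, so the opposite calls of F44E5.5 and F44E5.4 are uncertain too. None of 23 DNA damage genes was called, and their median was -0.27, or -0.60 relative to all genes. In 10 the PAR-XL input and total RNA lay below all 3 cXL inputs and in none above, against 18.2% and 45.7% of all genes. The gene *mrt-2* (8.15 and 16.8 TPM in the pair) was 2.06-fold higher in cXL by TPM, but less than 2-fold in TPM + 1. The p53 homologue's target genes *egl-1* and *ced-13* were too low to be compared. Constitutive chaperones had a median of -0.32, or -0.65 relative to all genes, with 2 of 21 higher. In 14 of them the PAR-XL input and total RNA lay below all 3 cXL inputs, and in 2 above. Mitochondrial stress genes had a median of -0.23, or -0.56 relative to all genes, with *hsp-6* at 228 and 231 against 313, 372 and 345 TPM. Chaperones of the endoplasmic reticulum had a median of 0.22, or -0.11 relative to all genes, and none of 17 was called. None of these medians reached 2-fold.

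Osmotic, metal and detoxification genes were mixed. The metallothionein gene *mtl-1* had 164 and 210.2 against 1.05, 7.14 and 4.99 TPM. It has a short transcript of 375 bases and 735 and 2 counts in the pair, so no ratio is given. The values of *mtl-2* were 6.11 and 10.1 against 9.99, 0 and 0 TPM, with 17 and 11 counts in the pair. Its transcript of 315 bases barely exceeds the fragment lengths set for the *gfp::lin-41* and N2 cXL inputs, so their zeros say little of its level. In the metal list 2 of 9 genes (22.2%) were higher, near the 24.5% of all genes. Of the 5 osmotic genes, the inositol transporter genes *hmit-1.1* (12.5 and 6.91 against 3.09, 3.29 and 2.67 TPM) and *hmit-1.2* were higher, whereas *gpdh-1*, the glycerol-making enzyme of the osmotic response, had 1.46 and 1.62 against 1.60, 2.41 and 2.60 TPM. Cytochrome P450 genes were higher in 11 of 41 cases (26.8%, near the 24.5% of all genes) and lower in 4 (9.76%), with *cyp-34A2* at 22.1 and 61.3 against 0.579, 1.04 and 0.733 TPM and *cyp-35C1* at 3.17 and 2.22 against 13.7, 31.2 and 20.2 TPM. UDP-glucuronosyltransferase genes were higher in 11 of 49 cases (22.4%, again near all genes) and lower in 9 (18.4%, against 2.26%), with *ugt-18* at 7.96 and 8.59 against 0.859, 0.305 and 0.493 TPM and *ugt-63* at 0.760 and 0.291 against 6.94, 7.10 and 6.42 TPM.

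Genes of immunity gave wide spreads. C-type lectins were higher in 50 of 120 cases (41.7%) and lower in 9 (7.5%), against 24.5% and 2.26% of all genes. Among them *clec-60* had 28.4 and 30.4 against 0.294, 0.349 and 0.340 TPM, the abundant *clec-63* 2485 and 2003 against 956, 1071 and 1232 TPM, and *clec-47* 21.5 and 26.3 against 106, 118 and 87.6 TPM. Among lysozymes and saposin-like genes, *lys-7* had 643 and 710.5 against 73.4, 383 and 161 TPM and *spp-2* 357 and 365 against 16.55, 53.4 and 34.6 TPM, both higher, whereas the saposin-like genes *spp-4* (30.8 and 29.95 against 175, 141 and 93.1 TPM) and *spp-17* (13.6 and 17.02 against 201, 65.7 and 15.6 TPM) were lower. The infection response gene *irg-8* had 32.7 and 22.4 against 152, 292 and 270.4 TPM and was lower as well. Among pals genes, markers of the response to intracellular pathogens, 9 of 16 were higher and none lower, for example *pals-39* (6.76 and 12.13 against 0.679, 1.39 and 0.367 TPM) and *pals-14* (4.51 and 10.3 against 0.280, 0.0799 and 0.0976 TPM). The value of *pals-26* (438 and 12.4 against 8.59, 0.795 and 4.23 TPM) is uncertain, because its annotated span (chromosome III, 4376503-4379200, plus strand) holds *srpr-1.1*, a gene of the signal recognition particle RNA (4378907-4379199, plus strand). In the whole list of pathogen response genes, 15 of 40 (37.5%) were higher and 5 lower. Antimicrobial peptide genes were higher in 23 of 35 cases, but only 5 of the 35 have a transcript of at least 500 bases, of which 2 were higher, and with those alone the median relative to all genes was -0.10.

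Metabolic genes of the diet and of growth included calls in both directions. Among fat genes, 8 of 26 (30.8%, against 24.5% of all genes) were higher and 2 lower: the lysosomal lipase gene *lipl-1* (chromosome V, 12920007-12922116, plus strand) had 91.4 and 71.0 against 1.53, 1.91 and 1.74 TPM (59.8-fold, 95% CI 42.2 to 84.7), the desaturase gene *fat-3* 269 and 381 against 60.4, 86.8 and 74.3 TPM (4.46-fold), and the glyoxylate cycle gene *icl-1* 1233 and 1733 against 485, 438 and 794 TPM. The lower pair were *lipl-5* (92.9 and 86.4 against 287, 340.4 and 324 TPM, 3.09-fold higher in cXL) and the stearoyl-CoA desaturase gene *fat-7* (3.53 and 2.59 against 11.9, 57.5 and 52.1 TPM). Of 16 propionate and B12 genes, 1 was higher and 2 lower, with a median of -0.15, and 5 lay above and 7 below all 3 cXL inputs, against 45.7% and 18.2% of all genes. A split of this list by branch was not planned among the lists, so the counts by branch are a description only. Within this list, 4 of 5 genes of the shunt that worms use without vitamin B12 lay below all 3 cXL inputs. Among them were *acdh-1* with 305 and 405 against 715, 894 and 565 TPM (2.35-fold higher in cXL, 95% CI 2.29 to 2.40) and *hphd-1* with 156 and 153 against 300.0, 365 and 335 TPM. Of 5 genes of the B12-dependent branch, 4 lay above all 3 cXL inputs, among them *mce-1* with 55.5 and 82.9 against 17.7, 24.4 and 15.1 TPM and *pcca-1* with 176 and 161 against 91.8, 121 and 133 TPM. Among the methionine cycle genes of the list, not all of which are named here, *metr-1* had 135 and 117 against 245, 211 and 241 TPM. It was not called. The gene *sams-3* had 76.8 and 82.3 against 178, 174 and 189.9 TPM. Both lay below all 3 cXL inputs, which is no statement on the class.

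Genes that handle pyrimidines and nucleosides are of interest beside a uridine analogue, although labelling cannot be separated from culture here. Of 22, 3 (13.6%) were higher and 2 (9.09%) lower, against 24.5% and 2.26% of all genes, with a median of -0.15. The pyrimidine breakdown gene *dhp-1* had 27.9 and 44.6 against 6.47, 9.95 and 6.08 TPM (4.31-fold), and *rnr-2*, the small subunit of ribonucleotide reductase, 146 and 121 against 387, 462 and 422 TPM (2.66-fold higher in cXL, 95% CI 2.57 to 2.76). The uridine phosphorylase gene *upp-1* had 90.3 and 86.4 against 73.3, 70.4 and 66.8 TPM and the nucleoside transporter gene *ent-5* 6.98 and 6.62 against 15.5, 29.5 and 23.7 TPM. Nucleolar genes were lower in 3 of 20 cases (15%, against 2.26% of all genes) and higher in none. The lower ones were led by *fib-1*, the fibrillarin that methylates ribosomal RNA, with 192 and 181 against 527, 412 and 644 TPM (2.75-fold higher in cXL, 95% CI 2.66 to 2.84). Proteasome subunits had a median of -0.41, with 27 of 31 below all 3 cXL inputs (18.2% of all genes) and none called. Nuclear genes of oxidative phosphorylation had a median of 0.49, none of 29 called, and cytosolic ribosomal proteins one of 0.00, which is -0.33 relative to all genes.

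**Figure D4:**
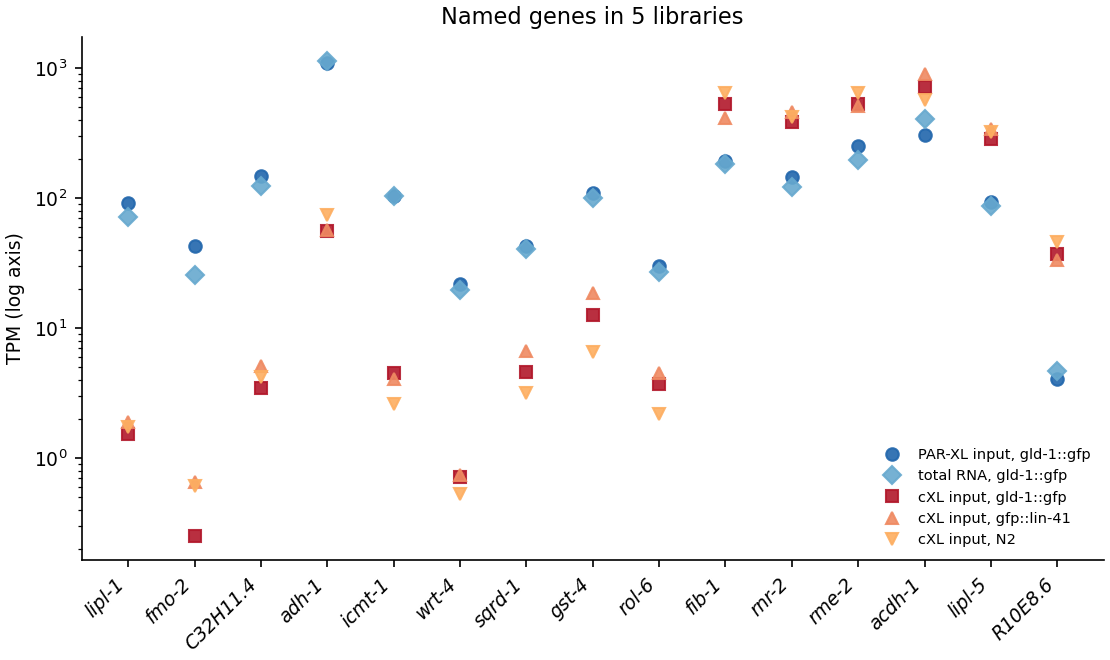
TPM (log axis) of 15 genes in the 5 libraries, 1 library each, with blue symbols for the PAR-XL input and total RNA and red to orange symbols for the 3 cXL inputs. For the 9 genes at the left, from *lipl-1* to *rol-6*, the blue symbols lie above the others, and for the 6 at the right, from *fib-1* to R10E8.6, they lie below, without overlap.

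Ranked over all protein-coding genes with a mean of at least 10 TPM, the extremes were set largely by short transcripts. The 10 largest ratios belonged to *rpl-39*, a copy of *his-58* (H02I12.6), *rps-28*, Y48G8AL.12, Y59E9AR.7 (the entry with sequence name Y59E9AR.1), C08E3.13, *his-6*, K06A4.7, *his-48* and *ucr-11*. Of these, 9 have transcripts under 500 bases and 7 had no count at all in the cXL input, as *rpl-39*, which had 2117 and 1916 TPM in the PAR-XL input and total RNA and no count in any cXL input. Its transcript is shorter than the fragment length set for each cXL library, so these zeros say nothing of its level and no ratio is given. The 10 smallest ratios belonged to 1 copy of *his-45* (F54E12.1), 2 of *his-47*, the entry Y59E9AR.7, *vit-3*, *vit-4*, *vit-5*, Y73B3A.18 (WBGene00022219), *spp-17* and T11F8.5, of which 6 have transcripts under 500 bases and 4 had no count in the PAR-XL input. Histone copies and the copies of Y59E9AR.7 stand at both ends. Their reads can be divided among near-identical genes differently in each library, so their values are uncertain, and of 67 compared histone genes 11 were higher and 30 lower.

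**Figure D5:**
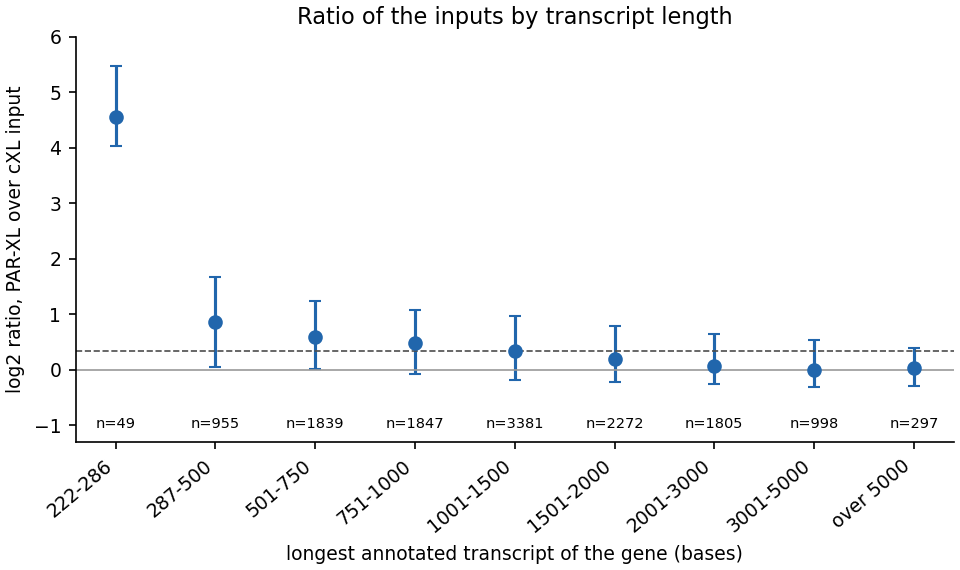
Median log2 ratio of (TPM + 1) in the PAR-XL over the cXL input of *gld-1::gfp* worms for compared protein-coding genes, by the length of their longest annotated transcript in bases, with bars from the lower to the upper quartile and the number of genes (n) below. The solid line marks equal levels and the dashed line the median of all genes. Medians go from 4.55 in the shortest class drawn to 0.87 in the next, which ends at 500 bases, and lie between -0.01 and 0.59 for longer transcripts.

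The dependence on length went along with the fragment length that the authors set for each library. Genes of up to 285 bases held 32 estimated counts in the cXL input, whose set fragment length was above 285 bases. The 978 of these genes that exceed the length set for the PAR-XL input held 15934 counts there, in 561 genes. Over longer transcripts the median log2 ratio still went from 0.59 at 500 to 750 bases to -0.01 at 3000 to 5000 bases. Whether fragment lengths or RNA made this slope was not tested. Among the 12770 compared genes with a transcript of at least 500 bases, 22.2% were at least 2-fold higher and 1.91% lower, and 44.1% lay above and 18.9% below all 3 cXL inputs in both the PAR-XL input and total RNA. The share also differed by level: of protein-coding genes with a mean of 1 to 5 TPM, 35% were higher, and of those above 100 TPM, 12.5%.

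Among genes with longer transcripts, the histone entries *his-48* (214-fold) and *his-45* (B0035.10, 48.5-fold) were near the top, with an uncertain division of reads. Large ratios were also those of named genes of several classes, chosen after their values were seen. Beside *lipl-1*, these included *fmo-2*, a flavin-containing monooxygenase, with 42.6 and 25.5 against 0.250, 0.659 and 0.615 TPM (170.4-fold, 95% CI 81.1 to 358), *adh-1*, an alcohol dehydrogenase, with 1088 and 1142 against 56.01, 57.02 and 74.3 TPM (19.4-fold, 95% CI 18.3 to 20.6), *icmt-1*, a methyltransferase of prenylated proteins, with 105 and 103 against 4.54, 4.08 and 2.62 TPM, and C32H11.4 with 147 and 125 against 3.48, 5.14 and 4.19 TPM. In each of these the PAR-XL input and total RNA lay far above all 3 cXL inputs. At the lower end, beside the vitellogenins, were Y73B3A.18 (7.58 and 5.24 against 166, 162 and 225 TPM, 21.9-fold higher in cXL, 95% CI 19.5 to 24.6), R10E8.6 (4.08 and 4.64 against 37.4, 33.2 and 45.8 TPM, 9.18-fold), C09B8.4 (1.59 and 2.69 against 20.6, 31.8 and 15.9 TPM) and the folate transporter gene *folt-2* (59.7 and 41.3 against 228, 289 and 204 TPM).

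In total RNA these genes lay on the side of the PAR-XL input, but 8 genes with transcripts of at least 500 bases and a mean of at least 5 TPM, also named after their values were seen, were at least 4-fold higher in (TPM + 1) in the PAR-XL input than in each of the other 4 libraries. They were *pals-26*, *atgp-2*, T19C4.1, the pseudogene F18E3.9 (WBGene00005825), *eak-4*, Y105C5A.13, *clc-12* and *oac-31*. The annotated span of *atgp-2* (223 and 16.8 against 10.2, 9.71 and 9.36 TPM, chromosome II, 14640096-14644085, minus strand) holds *lfor-2*, a short noncoding gene at 1846 TPM in the PAR-XL input (14641314-14641615, minus strand), so its value is uncertain as for *pals-26*. T19C4.1 had 15.6 and 2.097 against 0.327, 0.864 and 0.405 TPM and *oac-31* 34.6 and 6.12 against 5.83, 1.76 and 0.913 TPM.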

How the data were processed

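Of the 12 libraries of the study, the 2 *gld-1::gfp* inputs and 3 further libraries of worm RNA were used here, and the 7 pulldown elutions were left out. Following the study's methods, RNA was depleted of ribosomal RNA, libraries were made with the TruSeq RNA kit and sequenced as single-end reads, and the authors pseudo-aligned the reads with kallisto 0.43.1 to the WBcel235 transcriptome, the transgene and, where used, the ERCC spike-ins. The submitters' processing notes name bcl2fastq, kallisto and WBcel235. Each table gives an estimated count per transcript, deposited by the authors as kallisto divided the reads and without normalization, and a TPM, which the authors deposited over the whole index and which rests on a fragment length set per library. The counting is not stated to use strand.

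Here spike-ins and 25 entries for ribosomal RNAs or genes that overlap them were taken out. The remaining TPM, scaled again to sum to 1000000, were added up per gene, with the transgene as a gene of its own. Of 46724 gene entries, 43671 matched a symbol in a table of gene names, and coordinates (WBcel235) come from the deposited tables. Ratios used TPM + 1, and genes were compared above a mean of 1 TPM and with at least 20 estimated counts in the pair. No test was made, since 1 library per side leaves no replicate. Intervals (95%) are from Poisson error on the log scale. The ratio and its interval were run on simulated data that held Poisson error only. Such data cannot show errors from the division of reads, fragment lengths or variation between libraries. The genes and the 44 lists were chosen with earlier results of these data known. Named genes are the 10 largest and 10 smallest ratios at a mean of at least 10 TPM, the extremes and the most abundant member of each list, extremes of noncoding classes, and *gld-1*, its transgene and *tbb-2*. Others were named after their values were seen. Alternatives covered the unit, scaling, ribosomal RNA, gene set, pseudocount, filter, fold threshold and counting error. Restriction to transcripts of at least 500 bases was added after seeing the data. Promoter motifs and sequences were not analysed here. Python 3.11.15, numpy 2.4.6, pandas 2.3.3 and matplotlib 3.10.9 were used.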

Additional observations from a re-analysis of the deposited data

How the results depend on the processing

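No paired analysis was possible because each input is 1 library. Leaving out a replicate was not possible for the same reason. Of 3396 genes higher and 313 lower, centring the ratios on their median left 2033 and 794, a pseudocount of 5 TPM 1380 and 159, and a 4-fold threshold 684 and 54. A mean TPM above 5 left 1927 higher genes, and a 95% interval wholly past 2-fold left 2180. With transcripts of at least 500 bases and centred ratios, an alternative chosen after seeing the data, 1962 were higher and 729 lower. The squared correlation of 0.83 became 0.79 above 10 TPM in both and 0.87 with CPM. The other alternatives (CPM, ribosomal RNA kept, protein-coding genes only, a pseudocount of 0.1, no filter, transcripts of at least 500 bases rescaled) left both counts within 1.5-fold. List medians were recomputed under each alternative: 211 moved by less than 0.1 and the others by more. With transcripts of at least 500 bases and centred ratios, the median of antimicrobial peptides went from 1.49 to -0.10 and that of major sperm proteins from 0.61 to -1.44, and the latter was also below 0 without centring. With centring alone, those of ER chaperones (0.22 to -0.11), UDP-glucuronosyltransferases (0.18 to -0.15) and coelomocyte markers (0.28 to -0.05) changed sign, and medians near 0 also changed sign under some alternative (zygotic embryo, pyrimidine and ribosomal protein genes). Of the values of named genes under an alternative, 6362 kept, 200 lost and 150 gained their side of 2-fold, and no gene called 2-fold changed sign. Short transcripts are limited by the fragment length of the cXL library.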

Other observations

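Transcripts of the mitochondrial genome, which encodes subunits of the respiratory chain, were made a list after seeing the data. They were higher in the PAR-XL input in 6 of 11 cases (54.5%, against 24.5% of all genes) and lower in none. The cytochrome oxidase subunit gene COX3 had 3996 and 5169.5 TPM in the PAR-XL input and total RNA and 899.9, 1847 and 874 TPM in the cXL inputs of *gld-1::gfp*, *gfp::lin-41* and N2 worms, and ND1, a subunit of complex I, had 826 and 968 against 243, 394 and 227 TPM. ND6 was even in the pair, at 46.5 and 44.7 TPM. The 12 genes with an entry, ribosomal RNAs left out, summed to 13916 and 15809.7 against 5691, 10289 and 5496 TPM, so the groups did not overlap.

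Noncoding genes were called higher at a larger share than protein-coding ones, with 39 of 51 long intergenic RNAs (76.5%), 11 of 18 antisense RNAs (61.1%) and 54 of 74 other noncoding RNAs (73%) at least 2-fold higher in the PAR-XL input, against 23.8% of protein-coding genes. Antisense RNAs cannot be told apart from their sense partners without strand, and the counting is not stated to use strand. The long noncoding RNA *tts-1*, associated with ribosomes in dauer larvae and long-lived mutants, had 1313 and 1782 against 105, 201 and 183 TPM (12.5-fold, 95% CI 11.6 to 13.4), and *linc-8* had 29.1 and 41.3 against 3.1003, 6.77 and 3.42 TPM. A noncoding gene in the other direction was K06C4.23, with 10.3 and 2.70 against 330.0, 691 and 648 TPM. The signal recognition particle RNA genes *srpr-2.1* and *srpr-2.2*, near-identical copies with transcripts of 299 bases, were at 34244 and 24941 TPM in the PAR-XL input, 12313 and 9039.8 TPM in total RNA and 72215 and 54031 TPM in the *gld-1::gfp* cXL input. They were at 0 in the other cXL inputs, whose set fragment lengths exceed these transcripts. The length set for the *gld-1::gfp* cXL input lies only slightly below 299 bases. Their TPM there depends strongly on that setting and is uncertain. The RNase P RNA gene *rpr-1* had 2359 and 887 TPM in the PAR-XL input and total RNA and no count in any cXL input, but its transcript is shorter than the fragment length set for each cXL library, so no ratio is given.

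Among the nuclear chromosomes, the median log2 ratio was lowest on I (0.13) and III (0.14) and highest on X (0.58), with 17.8%, 18.3% and 26.4% of compared genes at least 2-fold higher, while the share was largest on V (28.8%, median 0.44). All 5 X-linked vitellogenins were lower in the PAR-XL input.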
